A study of Mus musculus with 2031 samples.

Results

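Among 2030 mouse brain cells with a count table each, 51 stood apart because almost none of their mapped reads lay outside annotated exons. For every cell, the reads assigned to no annotated exon were divided by those reads plus the reads on genes and the reads that fit more than 1 gene, and the 51 cells were those with a share under 3%. The share was the rule that chose the cells, so its values are given as a description. It ran from 0.732% to 2.51% in the 51 cells, with a median of 1.57%, and from 3.12% to 33.5% in the other 1979, with a median of 12.4%. The 3 members nearest to the limit had 2.14%, 2.48% and 2.51%, and the 3 nearest cells beyond it had 3.12%, 3.31% and 3.53%.

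The study sorted single astrocytes from adult mouse cortex and hippocampus and read their transcripts with Smart-seq2, a full-length method that primes on poly(A) tails. The animals were C57BL/6J mice at postnatal day 56, without genetic modification or treatment. Each cortical suspension came from 1 animal of a single litter, and each hippocampal suspension was pooled from 4 littermates of a further litter, so region and litter cannot be told apart. Cells were sorted with the astrocyte surface antibody ACSA-2, which binds the sodium pump subunit encoded by Atp1b2, with oligodendrocytes and dead cells gated out, and 1 cell was placed in each well. There were 2 suspensions per region (541 and 521 cortical cells, 464 and 504 hippocampal cells), and the suspension was the replicate in every comparison, with members set against the other cells of the same suspension, so p-values measure the spread between these suspensions. Gene counts per cell ran from 724897 to 2583120 in the members (median 1252520) and from 600758 to 3238220 in the other cells (median 1464770).

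Reads outside exons come mostly from introns of transcripts that are not yet spliced, and these stay in the nucleus. Malat1 and Neat1 are long noncoding RNAs that also stay there, at nuclear speckles and paraspeckles. Some mRNAs, many of them for splicing factors, keep selected introns and wait in the nucleus, whereas mature mRNAs for enzymes, membrane proteins and secreted proteins are exported and translated in the cytosol or at the endoplasmic reticulum. Transcripts of the mitochondrial genome are made and kept in mitochondria.

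The cells under 3% held every cell with the type AST5 in the study's list of cells, as used here, and most of those listed without a type. They comprised 26 of 26 AST5 cells, 13 of 15 cells without a type, 6 of 657 AST1 cells, 3 of 555 AST2 cells, 2 of 91 AST4 cells and 1 of 33 cells not found in the copy of that list used here, so that their type was not known. This 1 member is counted outside AST5. None of 452 AST3 cells was a member, which allows a share of up to 0.664%, and none of the mural cells and of 30 endothelial, 17 neuronal, 11 microglial and 9 oligodendrocytic cells was. For the mural cells a count of 0 allows up to 2.24%, and for the oligodendrocytic cells up to 33.3%, so small shares in the rare types were not detectable. AST5 and the other types came from clustering the gene counts of these cells, so a gene that separates AST5 cells from the rest is no independent result, and the 25 members outside AST5 are also described on their own. The AST5 cells had shares from 0.886% to 2.51%.

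Members came from all 4 suspensions. They made up 3.33% of the cells of cortex 1 (18 of 541, 95% Wilson interval 2.11% to 5.20%), 3.07% of cortex 2 (16 of 521, 1.90% to 4.93%), 2.37% of hippocampus 1 (11 of 464, 1.33% to 4.19%) and 1.19% of hippocampus 2 (6 of 504, 0.547% to 2.57%). These intervals and the limits from a count of 0 cover counting error only. The cortical suspensions were both above the hippocampal ones, 3.20% ± 0.181 against 1.78% ± 0.835 (SD, n = 2 suspensions each). An exact permutation test, two-sided, gave p = 0.333, the smallest that 2 against 2 suspensions can give. Members lay on 24 of 32 plates with at most 4 on a plate of 77 cells, and they were found on 10 of 11 dates of reverse transcription.

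**Figure D1:**
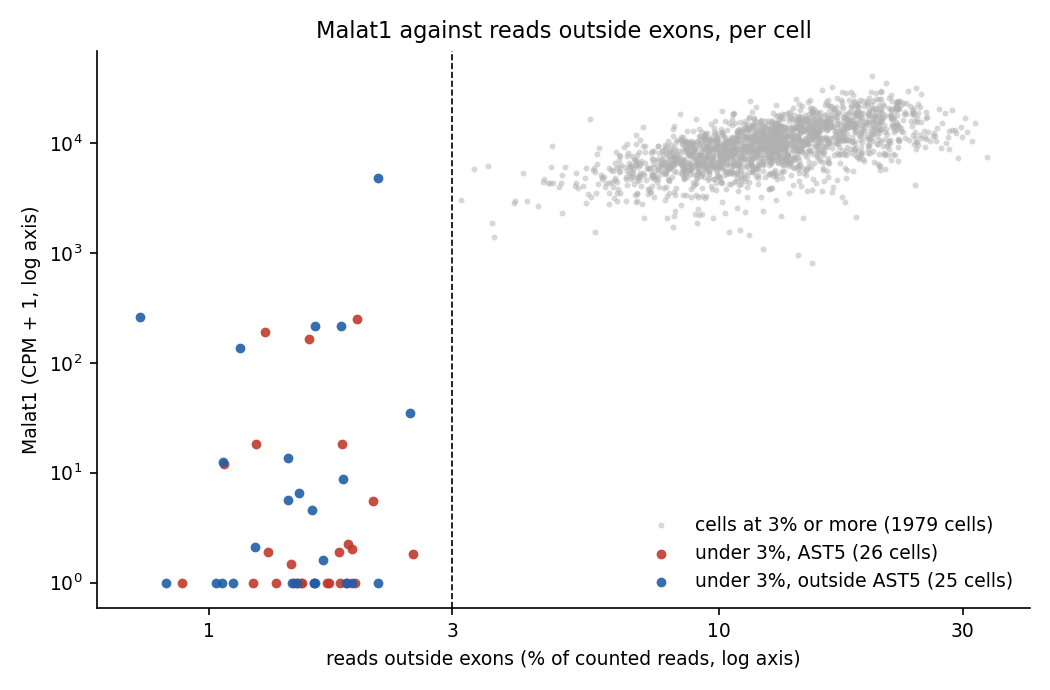
Each point is a cell, with the share of reads outside exons (% of counted reads, log axis) against Malat1 (CPM plus 1, log axis). Red points are the 26 members in AST5, blue points the 25 members outside AST5, grey points the 1979 other cells, and the dashed line marks 3%. 50 of the 51 members lie under 300 CPM, below the lowest other cell at 821 CPM.

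Malat1, the nuclear speckle RNA and the marker of nuclear RNA used here, was nearly absent from the cells under 3% in every suspension. The gene lies on chromosome 19 from 5795690 to 5802672 on the minus strand of GRCm38. Of the 51 members, 24 had no Malat1 count at all, 13 had 1 to 10 counts and 14 had more than 10. Per cell, 50 members lay between 0 and 259.4 CPM (counts scaled to a total of 1e6 gene counts), whereas the other 1979 cells lay between 821 and 41069 CPM with a median of 9498 CPM. A single member, an AST1 cell of cortex 2 with 2.14% of reads outside exons, had 4882 CPM, and 178 of the other cells had less. AST5 cells reached at most 248.96 CPM, and 13 of 26 had no count, against 11 of 25 members outside AST5. Among the 22 cells with a share from 3% to 5%, Malat1 ran from 1397 to 9508 CPM, so the cells just beyond the limit did not overlap in Malat1 with 50 of the 51 members.

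Summed over the members of a suspension, Malat1 stood at 30.4, 409.7, 56.5 and 40.5 CPM in cortex 1, cortex 2, hippocampus 1 and hippocampus 2, and over the other cells at 10981, 10064, 9252 and 9552 CPM. The high value of cortex 2 rested on the single AST1 cell, and was 13.9 CPM without it. On the log2(CPM + 1) scale the median member differed from the median other cell by -12.37, -13.26, -13.10 and -11.55 in the same order, a mean difference of -12.57 ± 0.78 (SD, n = 4 suspensions). All 4 suspensions had this direction, and the exact sign-flip permutation test over suspensions, two-sided, gave p = 0.12, the smallest possible with 4. The difference was -12.85 ± 0.36 for the members in AST5 and -11.82 ± 1.23 for those outside it (SD, n = 3 suspensions each, exact permutation p = 0.25, the smallest possible). On each of the 24 plates with a member the members' median Malat1 was below the lowest other cell of the plate, and the same held on each of the 10 dates of reverse transcription.

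The cells under 3% also held fewer genes, less RNA relative to the spike-ins and a larger mitochondrial share. After each cell was thinned to 500000 counts, the median member had 1229, 1202.5, 1337 and 1462 genes in cortex 1, cortex 2, hippocampus 1 and hippocampus 2, against 2086, 1994, 1840 and 1895.5 in the other cells. The mean difference of the medians was -646.3 ± 209.2 genes (SD, n = 4), and unthinned counts gave medians of 1369 and 2130 genes over all members and all other cells. Single cells overlapped: members ran from 898 to 2477 genes and the other cells from 1008 to 3029. ERCC spike-ins are RNAs added in the same amount to every well, and the ratio of gene counts to ERCC counts had a median of 13.6 over the members and 21.5 over the other cells. On the log2 scale the median member was different by a mean of -0.69 ± 0.08 (SD, n = 4), with members from 7.12 to 38.7 and other cells from 6.88 to 68.8. Transcripts of mitochondrial genes took a median of 7.20%, 5.77%, 5.35% and 7.56% of the members' gene counts and 3.52%, 3.62%, 3.52% and 3.77% of the other cells' counts, a mean difference of 2.86 ± 1.01 percentage points (SD, n = 4). For each of these 3 measures all 4 suspensions had the same direction and the exact sign-flip permutation p was 0.12, the smallest possible. Within plates, members had fewer genes on 22 of 24, a lower ERCC ratio on 22 of 24 and a higher mitochondrial share on 22 of 24.

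**Figure D2:**
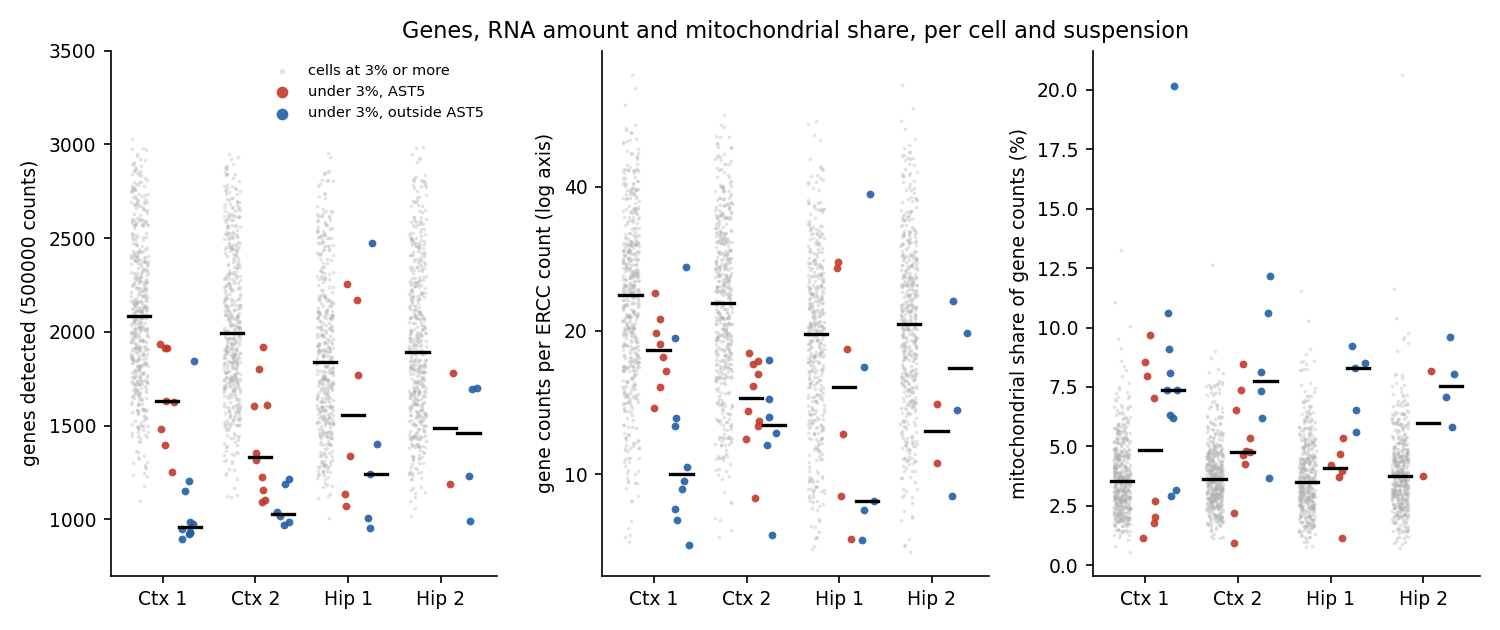
Each point is a cell of 1 of the 4 suspensions (Ctx cortex, Hip hippocampus), with genes detected at 500000 counts on the left, gene counts per ERCC count (log axis) in the middle and the mitochondrial share of gene counts (%) on the right. Black bars are medians. Members outside AST5 (blue) have the fewest genes in each suspension, with medians from 961.5 to 1462, and AST5 members (red) lie between them and the other cells (grey).

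The members outside AST5 spanned a wide range of gene numbers. The study discarded cells below a minimum of total expression before typing and clustered all remaining cells. Its list held 15 cells without a type, of which 13 were members, so these members may be cells that the study discarded. Whether they are was not checked cell by cell. Members without a type had 868339 to 1602780 gene counts, and the other cells 600758 to 3238220. These totals are reads, whereas the study's minimum is stated in transcripts. The 13 cells without a type had 921 to 1041 genes at 500000 counts, with a median of 974, and their ERCC ratios had a median of 8.99 (range 7.12 to 14.4). The 11 members that the study had typed as AST1, AST2 or AST4 had 1151 to 2477 genes with a median of 1240, and ERCC ratios with a median of 17.3 (range 8.41 to 38.7). The 26 AST5 cells had 1069 to 2256 genes with a median of 1546, and ERCC ratios with a median of 15.8 (range 7.30 to 27.9). The ranges of AST5 and the 11 typed members overlapped in genes. A member typed AST4 in hippocampus 1 had 2477 genes, an ERCC ratio of 38.7 and no Malat1 count.

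The mitochondrial shares of these kinds differed in their medians, with ranges that overlapped. The medians were 4.68% in AST5, 7.35% in the cells without a type and 8.05% in the members typed AST1, AST2 or AST4, against 3.97% in the 1292 other cells of these 3 types. The highest value, 20.2%, belonged to an untyped cell of cortex 1, of which 9.53% of gene counts were mitochondrial ribosomal RNA. By suspension, the median of the members outside AST5 exceeded that of the other cells by 3.84, 4.13 and 4.76 percentage points in cortex 1, cortex 2 and hippocampus 1, and the median of AST5 by 1.34, 1.15 and 0.570. The AST5 differences were smaller in each of these 3 suspensions. Whether cell damage has a part in the mitochondrial share was not tested. Reads that fit more than 1 gene took a median of 3.97% in the members and 4.82% in the other cells.

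Across genes, the test on summed counts made few calls. edgeR's quasi-likelihood test with the suspension as a block called 5 of 16018 genes at an adjusted p under 0.05 (0.0312%), and 6703 had an unadjusted p under 0.05. The adjusted p of 5889 genes was the same value, 0.0771, and 5174 genes (32.3%) had no count in any member sum, so the sizes fitted for such genes depend on a prior count and are not read here. DESeq2 called 10717 of the same genes. Without cortex 1, hippocampus 1 or hippocampus 2 edgeR called 0 genes (4754, 4863 and 3729 at an unadjusted p under 0.05), and without cortex 2 it called 4.

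Of the 5 called genes 4 fell in the members. CPM here and below are plain shares of gene counts, whereas edgeR's log2 fold changes also use TMM normalization. The fold changes of edgeR are therefore lower than the CPM alone would give. Rsrp1, which encodes an arginine-serine-rich protein, stood at 115.03, 107.2, 140.3 and 143.6 CPM in the members of the 4 suspensions and at 1323, 1324, 1266 and 1336 CPM in the other cells (log2 fold change -3.77 ± 0.14, SE, adjusted p = 0.00261). Sat1, the rate-limiting enzyme of polyamine breakdown, stood at 509, 518, 273.8 and 496 CPM against 3384, 3159, 2288 and 2161 CPM (-3.01 ± 0.17, adjusted p = 0.0112). S1pr1, a receptor for sphingosine-1-phosphate, stood at 1065, 1039, 928 and 878 CPM against 3687, 4029.9, 2438 and 2472 CPM (-2.04 ± 0.09, adjusted p = 0.00674). For all 3 genes each member sum was below every sum of the other cells. Gja1, which encodes the astrocyte gap junction protein connexin 43, stood at 2161, 1729, 2261 and 2219 CPM against 6238, 6697, 6362 and 6207 CPM (adjusted p = 0.00674), again without overlap. CT010467.1, annotated as a ribosomal RNA, rose from 6714, 7043, 8399.8 and 9989 CPM in the other cells to 11868, 14868, 16902 and 21106 CPM in the members (0.61 ± 0.04, adjusted p = 0.0271 with edgeR and 0.0676 with limma on mean log values, described below), and its count is uncertain because ribosomal RNA genes have near-identical copies. These calls did not hold in all settings. None of the 5 was called with a share under 5% as the limit (adjusted p = 0.142 for each). Without the single member with high Malat1, Gja1 (-2.15, adjusted p = 0.078) and S1pr1 (-2.15, adjusted p = 0.052) did not pass, and Gja1 did not pass at a share under 2% (adjusted p = 0.0642). CT010467.1 did not pass with ERCC scaling (0.41, adjusted p = 0.0686), against AST1, AST2 and AST3 cells alone (0.54, adjusted p = 0.089), against the other cells of the members' plates (adjusted p = 0.0888) or against the cells with fewer than 1600 genes (adjusted p = 0.0853).

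The fits by kind of member used 3 suspensions, since hippocampus 2 held fewer than 5 members of either kind. For AST5 edgeR called 0 of 16234 genes (0%), with 3893 at an unadjusted p under 0.05 and 10764 calls by DESeq2. For the members outside AST5 it called 2 of 16227 (0.0123%), S1pr1 and Gja1, both lower, and 0 without any 1 of the 3 suspensions, with 8706 at an unadjusted p under 0.05 and 11744 calls by DESeq2. With at least 2 cells per sum, which adds hippocampus 2, edgeR called 45.7% of genes for AST5 and 51.2% for the members outside it. A test of whether the difference between members and other cells itself differed between cortex and hippocampus, added after the values were seen, called 0 of 16018 genes with edgeR (0%), with 1.39% at an unadjusted p under 0.05 and 1196 calls with DESeq2.

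A further comparison, also added after the values were seen, gave every cell the same weight: the mean over cells of log2(CPM + 1) per set and suspension was tested with limma, with the suspension as a block. All differences below are on this scale, which understates changes of low genes. It also gives much weight to cells without a count, so a difference can far exceed the change of the summed counts. The differences are thus not fold changes of the sums. It called 1168 of 6306 genes (18.5%), of which 1131 were lower in the members (17.9%) and 37 higher (0.587%), and the median over all genes was -0.30. Against only those other cells with fewer than 1600 genes at 500000 counts, 9.1% of 5694 genes were lower and 4.69% higher. These shares are the background of every list count from that comparison below. Its members were not limited in the same way and had 898 to 2477 genes, so the sets were not matched on gene number. The median over all genes was 0.12 in that comparison, so counts from both comparisons are given for most lists of genes. Of the genes named below, edgeR on summed counts called only Gja1, and Malat1, Ogt and Fam107a each had an adjusted p of 0.0771 there, whereas DESeq2 called all 3. The cells with fewer than 1600 genes include mural cells. Of 6 mural markers tested against them 6 fell (median -3.12), whereas 2 of 3 fell (median -1.06) against all other cells. Gene number and the mix of cell types are thus not separated in this comparison for any list below. Without cortex 1 or cortex 2 the 1168 calls became 593 and 585. For AST5 alone 510 of 6480 genes were called (7.87%), 479 lower (7.39%) and 31 higher (0.478%), and 421 of the 510 were among the 1168. The shares lower and higher in AST5 are the background of every list count in AST5 below. Without cortex 1, cortex 2 or hippocampus 1 the calls in AST5 were 3.65%, 2.63% and 0% of the genes tested. For the members outside AST5 the only call in 6084 genes was Malat1 (0.0164%), with 1495 genes at an unadjusted p under 0.05. With at least 2 cells per sum, and so all 4 suspensions, 726 of 6102 genes were called outside AST5 (11.9%), so the absence of calls by list outside AST5 below holds for sums of at least 5 cells only. With sums of at least 5 cells, the number of genes called outside AST5 was 0 without cortex 1 or hippocampus 1, and 11 without cortex 2.

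Among long noncoding RNAs of the nucleus, Neat1 and Firre fell beside Malat1. Of the 17 listed, 4 passed the filter on low values, of which 3 fell and 0 rose, with a median difference of -2.17, beside 17.9% lower and a median of -0.30 over all genes. The 3 were Malat1, Neat1 and Firre, and edgeR on summed counts called 0 of 13. No member had a count of 11 of the 17 listed. Over all genes tested with edgeR, which leaves out low genes, the share without a count was 32.3%, so the bases differ. For these genes 3 fell and 0 rose of 4 tested (median -1.80) against the cells with fewer than 1600 genes. By kind of member 2 fell of 4 (median -2.13) in AST5, and 1 fell of 4 (median -2.26) outside it, where the call was Malat1. Neat1, the scaffold of paraspeckles, lies on chromosome 19 from 5824708 to 5845478, near Malat1. It had 0 counts in all 51 members and 160.4, 124.2, 148.1 and 146.3 CPM in the other cells of the 4 suspensions. Its mean in the other cells was 686 times a floor of 3 counts per member sum. That floor covers the counting of reads and not the spread between cells, so it gives no lower bound on the difference. A count of 0 in 51 cells allows a share of up to 5.88% of cells with a count. Neat1 had a count in 39.7% of the other cells at 500000 counts, and its mean log difference was -2.94 ± 0.38 SE, adjusted p = 6.06e-04. Firre, a nuclear RNA that tethers chromosome regions, was found in 1 suspension only, at 16.8 CPM in cortex 2, against 92.3, 62.3, 69.3 and 60.6 CPM in the other cells, and fell by 1.40 (adjusted p = 0.00596). Tug1 had 69.4, 29.8, 170.4 and 181.8 CPM in the members and 154.3, 177.7, 183.02 and 156.6 CPM in the others, and did not pass the test (adjusted p = 0.302). The sums of Tug1 overlapped between the sets, and where its transcripts lay in these cells was not tested. Gm3764, a long intergenic RNA outside the list, stood at 41.3, 26.9, 22.3 and 0.13 CPM against 926, 989, 859.9 and 821 CPM (difference -7.53 ± 0.60 SE, adjusted p = 2.60e-05).

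**Figure D3:**
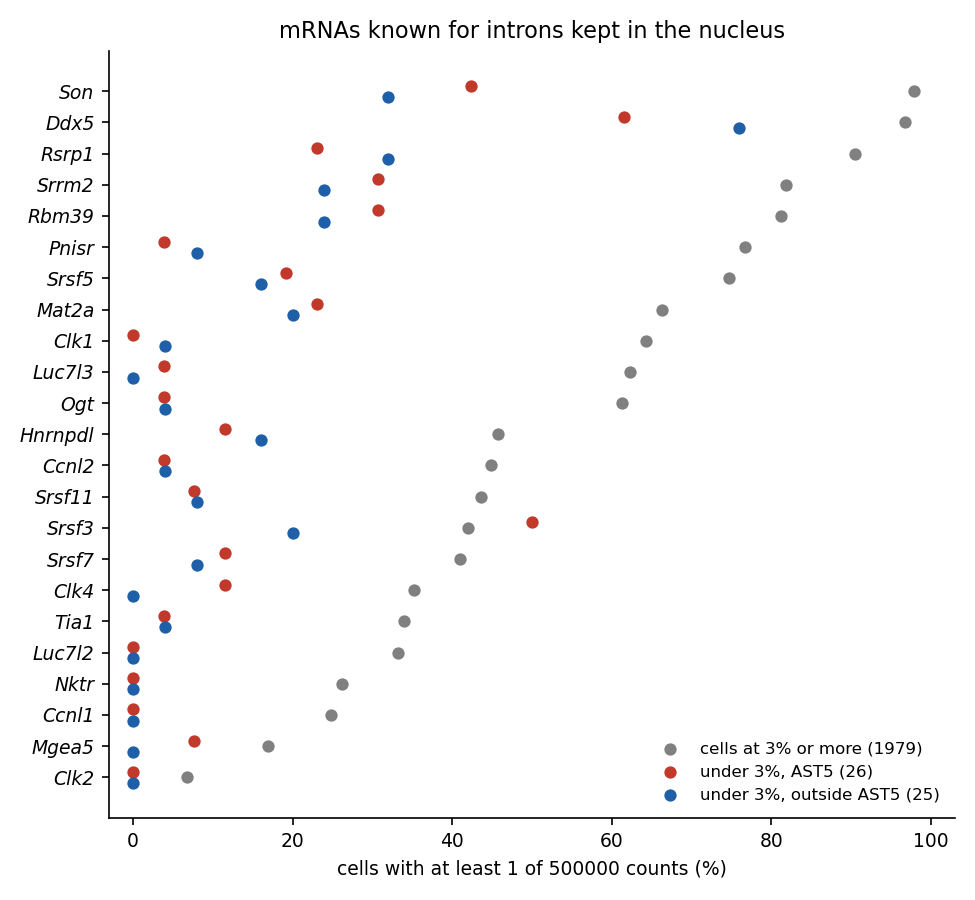
Each row is an mRNA known for introns kept in the nucleus, and each point is the percentage of cells with at least 1 count after thinning to 500000 counts, for the 1979 other cells (grey), the 26 AST5 members (red) and the 25 members outside AST5 (blue). Both sets of members lie to the left of the other cells for each mRNA except Srsf3, which 50% of AST5 members held.

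mRNAs known for introns kept in the nucleus were nearly all lower in the members. Of 22 tested, 20 fell and 0 rose with a median of -3.38, beside 17.9% lower and a median of -0.30 over all genes. Against the cells with fewer than 1600 genes 20 fell and 0 rose of 22 tested (median -2.95). In AST5 18 of 22 fell (median -3.56), beside 7.39% lower over all genes there, and outside AST5 none was called but the median was -3.22. Ogt, the enzyme that attaches N-acetylglucosamine to nuclear and cytosolic proteins, stood at 33.2, 0, 0 and 0.518 CPM in the members and at 387.3, 384.97, 323.2 and 346.9 CPM in the other cells (difference -4.87 ± 0.50 SE, adjusted p = 1.64e-04 with limma and 0.0771 with edgeR on summed counts). It was found in 3.85% of AST5 cells, 4% of members outside AST5 and 61.3% of other cells at 500000 counts. The study names Ogt for AST5, so its difference there is no independent evidence.

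Many of these mRNAs are for splicing regulators. Clk1, a kinase that phosphorylates serine-arginine splicing factors, had no count in 3 of the 4 member sums and 162.3 CPM in hippocampus 1, against 490.4, 578, 479 and 464 CPM in the other cells (difference -5.44 ± 0.57 SE, adjusted p = 1.64e-04). Pnisr, a serine-arginine-rich protein, reached 112.03 CPM in hippocampus 2 and at most 0.115 CPM in the other 3 member sums, against 466, 493, 367.5 and 409 CPM (difference -5.83 ± 0.61 SE, adjusted p = 1.64e-04). Son, a scaffold protein of nuclear speckles, stood at 73.1, 10.2, 260.4 and 9.84 CPM against 434, 431, 544 and 481 CPM (difference -5.72 ± 0.69 SE, adjusted p = 4.63e-04). For these 3 genes the member sums and the sums of the other cells did not overlap. Nktr, a cyclophilin of the speckles, had no count in any member and 79, 78.9, 52.1 and 74.9 CPM in the other cells (difference -1.81 ± 0.30 SE, adjusted p = 0.00224). Srsf5, a serine-arginine splicing factor, was found in 19.2% of AST5 cells, 16% of members outside AST5 and 74.7% of other cells (difference -4.67 ± 0.71 SE, adjusted p = 0.00152). Mgea5 (-0.56) and Srsf3 (-0.13) did not pass. Srsf3, a serine-arginine splicing factor, had 143.2, 204.9, 204.6 and 469 CPM in the members and 161.6, 215.6, 223.9 and 237.5 CPM in the other cells, with overlap.

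**Figure D4:**
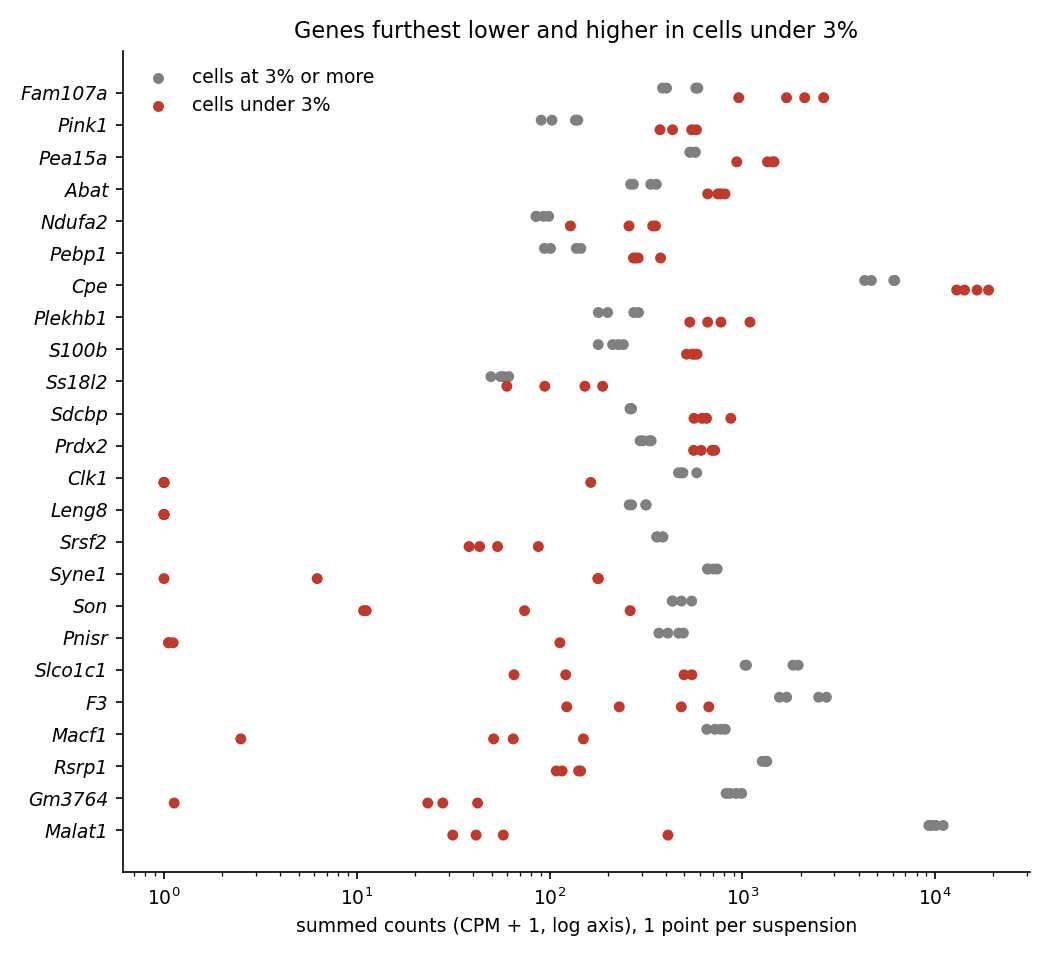
Points are summed counts (CPM plus 1, log axis), 1 per suspension, in the members (red) and the other cells (grey), for the 12 genes furthest higher and the 12 furthest lower in the test on mean log values. For the 12 lower genes each member point is below every point of the other cells, and for the higher genes each member point is above its own suspension's other cells.

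Other genes among the 12 furthest lower were not in that list. Leng8, an mRNA export factor, had no count in any member sum and 313.9, 315.8, 265.1 and 257.6 CPM in the other cells (difference -5.47 ± 0.52 SE, adjusted p = 1.42e-04). Its mean in the other cells was 1365 times a floor of 3 counts per member sum, which leaves out the spread between cells. Srsf2, a serine-arginine splicing factor, stood at 52.7, 42.3, 37.2 and 86.4 CPM against 385.8, 383.8, 359.6 and 357.95 CPM (difference -5.54 ± 0.61 SE, adjusted p = 1.91e-04). Macf1, which links microtubules and actin, stood at 148.6, 1.5, 50.2 and 63.7 CPM against 774, 813, 652 and 719.5 CPM (difference -6.60 ± 0.68 SE, adjusted p = 1.64e-04). Syne1, a very large protein of the nuclear envelope, stood at 176.6, 5.23, 0 and 177.9 CPM against 657, 707, 662 and 738 CPM (difference -5.59 ± 0.71 SE, adjusted p = 6.06e-04). F3, the coagulation factor receptor called tissue factor, stood at 668, 481, 121.7 and 228.7 CPM against 2481, 2723, 1554 and 1693 CPM (difference -6.07 ± 0.65 SE, adjusted p = 1.75e-04). Slco1c1, a thyroid hormone transporter, stood at 545, 120.1, 64.3 and 497 CPM against 1827, 1943, 1031 and 1048 CPM (difference -5.84 ± 0.81 SE, adjusted p = 8.81e-04). The members' sums were below all sums of the other cells for each of these genes.

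Macf1 and Syne1 have very long transcripts, and a larger share of long genes was called lower against all other cells. Among protein-coding genes in 4 bins of near equal size by exon length, from short to long, 11.1%, 15.2%, 19% and 28.9% fell. In 4 bins by gene length outside exons the shares were 14.7%, 16.5%, 18.2% and 24.9%, and exon and intron length were not separated from each other. In 4 bins by mean level, from low to high, they were 19%, 17.8%, 19.6% and 17.9%. Of 36 long intergenic RNAs 11 fell, and of the processed pseudogenes, which have no introns, 0.379% did.

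Immediate early genes, which are switched on within minutes by stimuli and by cell dissociation and whose mRNAs are short-lived, were lower as a group. Of 32 listed, 10 passed the filter on low values, of which 9 fell and 0 rose, with a median difference of -1.51, beside 17.9% lower over all genes. Against the cells with fewer than 1600 genes 11 fell and 0 rose of 13 tested (median -1.64). By kind, 4 fell of 10 (median -1.36) in AST5, and none of 9 was called (median -1.45) outside it. Summed over the list the members had 167.1 to 431 CPM and the other cells 1959 to 3984 CPM over the 4 suspensions, without overlap. Fos, a subunit of the AP-1 factor, stood at 76.1, 0.0556, 0 and 0.13 CPM against 614, 362.4, 948 and 909 CPM (difference -1.75 ± 0.33 SE, adjusted p = 0.00424). Dusp1, a phosphatase that turns off MAP kinases, was found in 3.92% of members and 30.2% of other cells (difference -2.25 ± 0.43 SE, adjusted p = 0.00421). Ccn1, a secreted matricellular protein, was found in 1.96% and 31.8% (difference -2.71 ± 0.41 SE, adjusted p = 0.00141). Per1, a clock gene, did not pass (difference -0.72 ± 0.25 SE, adjusted p = 0.0595).

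**Figure D5:**
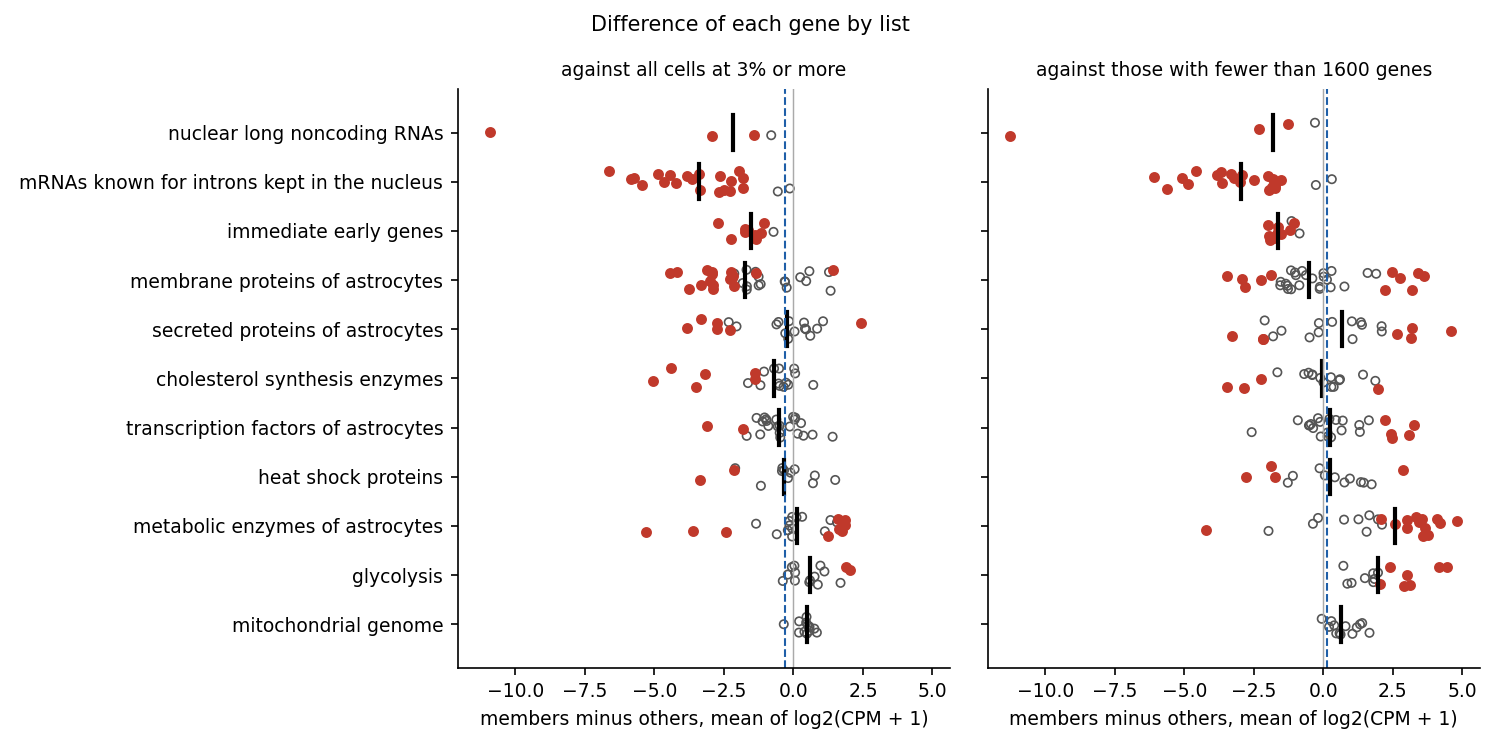
Each point is a gene, with the difference of the mean log2(CPM + 1) between members and other cells, against all other cells (left) and against those with fewer than 1600 genes (right). Red points passed an adjusted p of 0.05, black bars are list medians, and the dashed line is the median over all genes tested (-0.30 and 0.12). mRNAs with introns kept in the nucleus and immediate early genes lie to the left in both panels, whereas the astrocyte membrane and secreted proteins and the cholesterol enzymes hold genes on both sides.

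Membrane proteins of astrocytes held calls in both directions. Of 34 membrane proteins 16 fell and 1 rose (median -1.76, beside 17.9% lower over all genes), but against the cells with fewer than 1600 genes 5 fell and 6 rose of 34 tested (median -0.51), so most of these calls depended on the comparison. Over all genes 9.1% were lower and 4.69% higher against those cells. By kind, 16 fell of 34 (median -2.71) in AST5, beside 7.39% lower over all genes there, and none of 34 was called (median -2.40) outside it. The 5 that fell in both were Slc7a10, Cd81, Dag1, Mertk and Slc7a11. Mertk, a receptor for engulfed debris, stood at 155.7, 127.6, 108.8 and 151.01 CPM against 682, 648, 355.8 and 377.4 CPM (difference -3.77 ± 0.62 SE, adjusted p = 0.00229). Slc7a11, the cystine-glutamate exchanger, stood at 0, 40.2, 0.0578 and 0 CPM against 237.5, 236.3, 194.3 and 176.5 CPM (difference -3.01 ± 0.45 SE, adjusted p = 0.00126). Dag1, the laminin receptor dystroglycan, stood at 79.3, 57, 61.5 and 0 CPM against 314.7, 321.3, 375.9 and 424 CPM (difference -4.44 ± 0.61 SE, adjusted p = 8.52e-04), and the member sums of these 3 genes were below those of the other cells. Tspan7, a tetraspanin, was the 1 gene of the list that rose, from 5377, 5847, 6442 and 6446 CPM to 9667, 8747, 6655 and 11906 CPM (difference 1.42 ± 0.44 SE, adjusted p = 0.0384). The glutamate transporters did not pass. Slc1a2 stood at 6264, 5138, 4976 and 9051 CPM against 3553, 3801, 4277 and 4317 CPM (adjusted p = 0.097). Slc1a3, which the study uses as a marker of all astrocytes, stood at 6432, 4885, 7522 and 9611 CPM against 7954, 8748, 8813 and 8832 CPM (difference 0.24, adjusted p = 0.805). On the summed counts Slc1a3 had the opposite sign, at -0.70 with edgeR (adjusted p = 0.0771) and -0.64 with DESeq2, which called it lower (adjusted p = 6.94e-04).

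Secreted proteins and cholesterol enzymes were mixed. Of 20 secreted proteins of astrocytes 5 fell and 1 rose (median -0.24), near the 17.9% lower over all genes. The median had the other sign against the cells with fewer than 1600 genes, where 3 fell and 4 rose of 20 tested (median 0.67). Of the secreted proteins 4 fell and 1 rose of 20 (median -0.95) in AST5, and none of 20 was called (median -0.97) outside it. Mfge8, which bridges dying cells to phagocytes, stood at 3298, 2791, 1329 and 2574 CPM against 8155, 9372, 6131 and 6549.8 CPM (difference -3.32 ± 0.69 SE, adjusted p = 0.00597), and it also fell against the cells with fewer than 1600 genes (-3.29, adjusted p = 0.00651). Agt, the precursor of angiotensin, stood at 33.7, 106.95, 44.8 and 379.98 CPM against 257.4, 209.2, 784 and 739 CPM, with overlap (difference -2.77 ± 0.58 SE, adjusted p = 0.00624). Cpe, a carboxypeptidase of the secretory pathway, rose, with 14168, 16456, 12905 and 18878 CPM against 4300.4, 4661, 6092 and 6159.5 CPM (difference 2.44 ± 0.42 SE, adjusted p = 0.00251). Of 19 cholesterol synthesis enzymes, a textbook list chosen after the values were seen, 6 fell and 0 rose (median -0.70), beside 17.9% lower over all genes. For these enzymes 3 fell and 1 rose of 18 tested (median -0.05) against the cells with fewer than 1600 genes, beside 9.1% lower and 4.69% higher over all genes. Of these enzymes 5 fell of 19 (median -1.28) in AST5, and none of 18 was called (median -0.71) outside it. Msmo1, a sterol demethylase, stood at 1341, 463, 439 and 127.2 CPM against 2374, 2446, 1513 and 1422 CPM (difference -5.03 ± 0.67 SE, adjusted p = 7.19e-04), whereas Hmgcs1, which makes hydroxymethylglutaryl coenzyme A, had 917, 1269, 467 and 1308 CPM against 601, 644, 459 and 517 CPM and did not pass (adjusted p = 0.971).

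Transcripts of soluble enzymes were among those that rose in the members. Of 23 metabolic enzymes and binding proteins of astrocytes 7 rose and 3 fell (median 0.11), beside 0.587% higher and 17.9% lower over all genes. Against the cells with fewer than 1600 genes 1 fell and 13 rose of 23 tested (median 2.56), beside 4.69% higher and 9.1% lower over all genes. Of these genes 2 fell and 4 rose of 23 (median 1.41) in AST5, and none of 23 was called (median -0.25) outside it. Ndrg2, a differentiation-related protein of astrocytes, stood at 4836, 7649, 3987 and 4193 CPM against 2594, 2724, 2573 and 2618 CPM (difference 1.84 ± 0.45 SE, adjusted p = 0.0121). Prdx6, an antioxidant peroxiredoxin, stood at 6939, 7715, 7365 and 6235 CPM against 4473, 4626, 3230.5 and 3080.4 CPM (difference 1.59 ± 0.46 SE, adjusted p = 0.0284). Mt3, a zinc-binding metallothionein, stood at 861, 1077, 1107 and 1184 CPM against 485, 460.2, 495 and 496 CPM (difference 1.77 ± 0.54 SE, adjusted p = 0.0344). Of 15 glycolysis genes tested 2 rose and none fell (median 0.59), whereas 0 fell and 7 rose of 15 tested (median 1.96) against the cells with fewer than 1600 genes, with the same shares over all genes. Of the glycolysis genes 2 rose of 15 (median 1.24) in AST5, and none of 15 was called (median 0.05) outside it. The 2 that rose against all other cells were Aldoc, the brain aldolase, with 21106, 29132, 19915 and 26890 CPM against 14029.5, 13986, 11402 and 11936 CPM (difference 1.88 ± 0.41 SE, adjusted p = 0.00775), and Ldhb, a lactate dehydrogenase subunit, with 2777, 2978, 3773 and 2525 CPM against 1709, 1678, 1493 and 1502 CPM (difference 2.03 ± 0.50 SE, adjusted p = 0.0136). For Prdx6, Mt3, Aldoc and Ldhb each member sum was above every sum of the other cells. As throughout, CPM are shares of gene counts. Members had fewer gene counts per ERCC count (mean log2 difference -0.69), so a larger share need not mean more transcript per cell.

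The 12 genes furthest higher in the members had unlike roles. Fam107a, an actin-bundling stress protein that the study names for AST5, stood at 1691, 2635, 955 and 2099.8 CPM against 586, 571, 383.8 and 403 CPM (difference 3.74 ± 0.63 SE, adjusted p = 0.0025 with limma and 0.0771 with edgeR on summed counts). Pink1, a kinase that marks damaged mitochondria, stood at 576, 544, 433 and 372.5 CPM against 89.4, 101.8, 138.9 and 135.1 CPM (difference 3.04 ± 0.57 SE, adjusted p = 0.00412). Pea15a, an astrocyte phosphoprotein, stood at 1456, 1347, 1427 and 933 CPM against 533, 535, 568 and 566 CPM (difference 2.66 ± 0.61 SE, adjusted p = 0.00947). Member and other sums did not overlap for these 3 genes. Abat breaks down GABA, S100b is a calcium-binding protein of astrocytes and Ndufa2 is a subunit of respiratory complex I, and their differences were 2.59, 2.32 and 2.51 (adjusted p from 0.0191 to 0.0281). Against AST1, AST2 and AST3 cells alone S100b did not pass (1.63, adjusted p = 0.0871), nor did Plekhb1 (adjusted p = 0.0535). Of the 12 genes, Fam107a, Pink1 and Cpe passed without any 1 of the 4 suspensions, and each of the other 9 did not pass without at least 1 of them. Against the cells with fewer than 1600 genes the 12 highest genes had differences from 3.01 to 5.72.

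Against all other cells, limma called no gene of the mitochondrial genome, the respiratory chain or the ribosome lower. In each of these groups 1 gene was lower in all 4 suspensions without a call. Higher in all 4 were 7 of 13 mitochondrial genes, 24 of 76 respiratory chain subunits and 12 of 81 ribosomal proteins. Over all 6306 genes tested 1788 were lower and 410 higher in all 4. On simulated data with 200 of 6306 genes changed by 2 on the log2 scale, this fit found 0 of the 200. In the data it called more genes than that, some with differences under 2. The simulation thus does not give the power of the fit here. None of 13 protein-coding genes of the mitochondrial genome was called in either direction by limma, also against the cells with fewer than 1600 genes (medians 0.48 and 0.62), although their summed level ran from 37244 to 46505 CPM in the members and from 25904 to 26574 CPM in the other cells. The members' sums were all above those of the other cells, as were the sums of the members outside AST5 (46319.5 to 59708 CPM), whereas those of AST5 (24505 to 37579 CPM) overlapped with them. Of 76 respiratory chain subunits encoded in the nucleus 2 rose and 0 fell (median 0.74), whereas 1 fell and 29 rose of 76 tested (median 1.85) against the cells with fewer than 1600 genes. Over all genes 0.587% were higher and 17.9% lower against all other cells, and 4.69% higher and 9.1% lower against those with fewer than 1600 genes. By kind of member none of 77 was called (median 1.11) in AST5, and none of 76 was called (median 0.04) outside it. Of 81 ribosomal proteins 0 rose and 0 fell (median 0.37), and 0 fell and 4 rose of 81 tested (median 1.07) against the cells with fewer than 1600 genes, near the 4.69% higher over all genes there. By kind, the median of the ribosomal proteins was 0.84 in AST5 and 0.19 outside it, with no call in either. Heat shock proteins, which dissociation can induce, had 2 lower and 0 higher of 13 tested (median -0.34), near the 17.9% lower over all genes. Against the cells with fewer than 1600 genes 3 fell and 1 rose of 14 tested (median 0.23), beside 9.1% lower and 4.69% higher over all genes. By kind 1 fell of 12 (median 0.60) in AST5, and none of 13 was called (median -0.78) outside it.

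Each of the 10 astrocyte markers had counts in the members. All 10 were tested, 2 rose (Aldoc and Gfap), 2 fell (Gja1 and Gjb6) and 6 did not pass, beside 17.9% lower and 0.587% higher over all genes. With the cells of fewer than 1600 genes as the comparison 0 fell and 5 rose of 10 tested (median 2.17), beside 9.1% lower and 4.69% higher. Those cells include mural cells, so cell type and gene number are not separated there. By kind of member 3 fell and 1 rose of 10 (median 0.30) in AST5, and none of 10 was called (median -1.46) outside it. Gfap, the intermediate filament of astrocytes, stood at 387.8, 312.9, 2557 and 3605 CPM against 144.4, 158.2, 956 and 873 CPM (difference 2.89 ± 0.84 SE, adjusted p = 0.0289). The list summed to 42169 to 59209 CPM in the members and 39747 to 42869 CPM in the other cells, and to 36641 to 51993 CPM in AST5 and 37951 to 62240.5 CPM in the members outside it. Transcription factors of astrocytes had 2 lower (Nfib and Zbtb20) and 0 higher of 24 tested (median -0.53), a smaller share than the 17.9% lower over all genes. The direction turned against the cells with fewer than 1600 genes, where 0 fell and 5 rose of 24 tested (median 0.25), beside 9.1% lower and 4.69% higher over all genes. By kind 1 rose of 24 (median -0.06) in AST5, and none of 24 was called (median -1.33) outside it. Of the other types' markers, mural genes summed to 0.0383 to 164.5 CPM in the members against 1411 to 4761 CPM, with 4 of 7 at 0 in all members. Endothelial genes summed to at most 0.0556 CPM with 5 of 6 at 0 (124.3 to 378.3 CPM in the other cells). The neuronal genes summed to at most 72 CPM with 2 of 5 at 0 (13.4 to 83.3 CPM in the other cells, with overlap), and microglial genes summed to at most 105.2 CPM with 2 of 5 at 0 (147.2 to 302.4 CPM in the other cells). Oligodendrocyte genes ran from 0 to 648 CPM in the members and from 64.9 to 1067 CPM in the other cells, and genes of oligodendrocyte precursors from 124.02 to 464 CPM against 252.9 to 357.2 CPM. The part of such RNA in the differences was not tested.

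Of the 6 genes that the study names with AST5, Ogt and Sept2 fell and Fam107a rose among all members. Sirt2, Emp2 and Slc1a3 did not pass. The study gives Sirt2, Sept2 and Emp2 as enriched in AST5, which it mapped by low Ogt and high Fam107a. The call of Sept2 thus had the other direction, in a comparison that also held members outside AST5. In AST5 alone Ogt fell, Fam107a rose and the other 4 did not pass, Sept2 among them (adjusted p = 0.185). Apart from Slc1a3, a marker of all astrocytes in the study, these genes were chosen by the study on these cells. Sept2, a septin of the cytoskeleton, had 231.8, 252.6, 481 and 443 CPM in the members and 345.1, 345.5, 427 and 431 CPM in the other cells (difference -2.04 ± 0.65 SE, adjusted p = 0.0435), with overlap. Its call was lost against AST1, AST2 and AST3 cells alone (-1.75, adjusted p = 0.082), against the cells with fewer than 1600 genes (-1.29, adjusted p = 0.238) and without cortex 1 or cortex 2, and neither edgeR (adjusted p = 0.103) nor DESeq2 (adjusted p = 0.0661) made it on the summed counts. Sirt2, a deacetylase, had 414, 171.7, 111.4 and 28.4 CPM against 187.6, 168.02, 195.6 and 193.3 CPM (adjusted p = 0.562), and Emp2, a membrane protein of epithelia, 102.3, 85.4, 58.7 and 1.04 CPM against 139.2, 134.5, 150.6 and 143.5 CPM (adjusted p = 0.0804). Among the members outside AST5, which the study did not name by these genes, Ogt was found in 4%, Fam107a in 96% and Malat1 in 48% of cells at 500000 counts, against 61.3%, 67.5% and 100% of the other cells. In AST5 the same genes were found in 3.85%, 88.5% and 30.8% of cells. The mean log differences of the members outside AST5 from the other cells were -4.85 for Ogt, 3.32 for Fam107a and -10.33 for Malat1, and those of AST5 were -5.15, 3.06 and -11.53.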

How the data were processed

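The deposited files hold raw counts per gene for each single cell, which the authors made with STAR 2.5.2b and HTSeq on GRCm38.p5 after FastQC 0.11.4, as the submitters' processing notes name them. Smart-seq2 has no molecular tags, so counts are reads, and intervals cover counting error only. A header line was skipped in 266 of 2030 files. The series table of the authors was not used here. No 2 cells had identical counts, and no doublet caller was run. Types were taken from the study's list.

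Counts were summed per set and suspension where both sets held at least 5 cells, and tested with edgeR 4.0.16 (quasi-likelihood, TMM, Benjamini-Hochberg) with the suspension as a block. The pairing follows from the design, since both sums come from the same animals. DESeq2 1.42.0 was an alternative. limma 3.58.1 was run on the mean of log2(CPM + 1) over cells for genes with a mean over 0.5. Medians per suspension were compared by an exact sign-flip permutation test. Versions were R 4.3.3 and Python 3.11.15. The fits were tested on simulated data in which 200 genes were changed, fewer than limma called for all members. Their power in the data can therefore differ. On the simulated data all fits missed the smaller changes. Only limma on all members found most of the larger changes, so few calls by edgeR, by kind of member or between regions do not show that genes did not differ. Named genes were Malat1, those the study names for AST5, examples from the lists, and per fit the 12 furthest in each direction with an adjusted p under 0.05, one direction in every suspension, at least 50 CPM and a count in at least 50% of cells of the higher set. The members, the lists and these tests were chosen with earlier results of these data known, and the limma fits and the test between regions were added after the values were seen. A gene of the lists is not reported here.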

Additional observations from a re-analysis of the deposited data

Results flagged for a closer look

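In 6 of 48 groups of 4 suspension sums, 1 suspension lay far from the other 3. For normally distributed values chance gives this in about 1 of 20 groups. These are CPM sums in which 1 cell can set the value, so that rate need not hold here. The gap to the nearest other suspension, as a share of the range over the members' sums, was 0.931 for Malat1 (cortex 2 high), 0.984 for Ogt (cortex 1 high), 0.91 for Sat1 (hippocampus 1 low), 0.85 for Pebp1 (hippocampus 2 high), 0.999 for Pnisr (hippocampus 2 high) and 1.0 for Clk1 (hippocampus 1 high). For Malat1 the high sum came from a single AST1 cell.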

How the results depend on the processing

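The 4 measures per cell (Malat1, genes, ERCC ratio and mitochondrial share) kept their direction under all 47 alternatives run. The share of tested genes that was called did not keep its size. For all members the 0.0312% called by edgeR became 66.9% with DESeq2, 0% with a share under 5%, 0.0624% with ERCC scaling, 0.133% with each cell thinned, 0.203% against cells with fewer than 1600 genes, 7.57% among genes over 200 CPM, and 0% to 0.024% when 1 suspension was left out. For AST5 the 0% became 66.3% with DESeq2 and 45.7% with at least 2 cells per sum. Outside AST5 the 0.0123% became 0.0431% with RLE size factors, 72.4% with DESeq2, 51.2% with at least 2 cells per sum, and 0% when 1 suspension was left out. The test between regions gave 9.26% with DESeq2. With limma the 18.5% for all members became 10.7% with a share under 5% and 9.22% to 20% when 1 suspension was left out. The 7.87% in AST5 became 0% to 3.65% when 1 suspension was left out. The 0.0164% outside AST5 became 11.9% with at least 2 cells per sum, 0.911% against cells with fewer than 1600 genes and 0% to 0.177% when 1 suspension was left out. Without the replicate block, edgeR called 34.8% for all members, 36.9% for AST5 and 44.8% outside AST5, and limma called 12% for AST5 and 16.9% outside AST5. Sirt2 reversed to 0.32 with edgeR and 0.40 with limma at a share under 5%, and to 0.88 against cells with fewer than 1600 genes. Slc1a3 reversed to -0.89 against AST1, AST2 and AST3 cells, to -0.46 at a share under 5%, and ran from -0.22 to 0.70 when 1 suspension was left out. The cause of these changes was not tested. Over the named genes and their alternatives, 574 values kept direction and side, 67 lost the call and 19 gained it. The limma fits with their alternatives, the limits of 1600 genes and 200 CPM and the test between regions were chosen after seeing the data. The comparison outside AST5 with only AST1, AST2 and AST3 cells was not run.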
